A study of Mus musculus with 16 samples.

Results

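The 10 genes described here, Gap43, Gng8, Dpysl3, Dpysl5, Stmn1, Stmn2, Tubb3, Dcx, Marcksl1 and Crmp1, are commonly used to mark immature olfactory sensory neurons. They were taken by gene symbol from the 19505 genes on the array, and each had 1 row, so 10 of 19505 genes were followed on all 16 arrays. Olfactory sensory neurons are replaced throughout life from basal progenitors of the nasal epithelium. A newly born neuron first extends an axon towards the olfactory bulb and expresses growth cone, cytoskeletal and guidance genes such as these, and later switches to the proteins of odor transduction, among them the olfactory marker protein Omp.

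The samples came from S100a5-tauGFP mice, which carry a green fluorescent reporter driven by S100a5, a calcium-binding protein gene of mature olfactory sensory neurons whose expression depends on their activity. Per the labels, 24 C57BL/6 mice of both sexes, 7 to 12 weeks old, spent 40 h singly in chambers with clean air flowing at 3.1 L per min, and from 26 h on received 10 s pulses every 20 min. The pulses carried a mixture of the aldehyde odorants undecanal and bourgeonal for 12 mice (odor) and filtered air for the others (vehicle). Cells of the olfactory mucosa were dissociated, pooled from 3 mice and sorted by fluorescence into 2 fractions, which gave 4 odor pools and 4 vehicle pools, each with a titled GFP- and a titled GFP+ array, or 4 groups of 4 Clariom S arrays. All groups carried the reporter and were sorted, and no unsorted mucosa was analysed here.

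The sample titles and the cell type entries of the labels state opposite GFP status on all 16 arrays, so the fractions are named by their titles. S100a5, the gene that drives the reporter, had a log2 signal of 16.37 ± 0.092 in titled GFP- cells and 15.38 ± 0.13 in titled GFP+ cells of the vehicle pools (mean ± SD, n = 4 arrays each), which goes against the titles. Its difference, titled GFP- minus titled GFP+, was 1.00 ± 0.20 (SE) in vehicle pools and 1.31 ± 0.20 in odor pools (limma, adjusted p = 0.00186 and 0.000155), so every fraction difference below is given by the titles and would change sign with the cell type entries, as would the interaction, while an odor minus vehicle difference would keep its sign and pass to the other fraction. Omp, which defines mature olfactory neurons, was above background on all 16 arrays in both fractions, with a difference of 0.12 ± 0.10 in vehicle pools that did not pass the test (limma, adjusted p = 0.457). Replicate arrays correlated at 0.979 to 0.995 over 19572 tested features. The background of an array, taken as the 95th percentile of its 5222 negative controls, lay between 9.14 and 10.9 on the log2 scale, and 21.2% to 36.3% of features exceeded it.

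Promoter windows of 6 of the 10 genes were present in the RefSeq table of assembly GRCm38.p6, each running from 250 bases before to 50 bases after an annotated start. The 4 shown belong to Gng8 and Dpysl5, which were lower in titled GFP- cells, and to Tubb3 and Dcx, whose differences did not pass the test. They lie at chr7:16891536-16891835 (+ strand), chr5:30711314-30711613 (+), chr8:123411303-123411602 (+) and chrX:143933170-143933469 (-), and capitals mark the motif matches.
Gng8: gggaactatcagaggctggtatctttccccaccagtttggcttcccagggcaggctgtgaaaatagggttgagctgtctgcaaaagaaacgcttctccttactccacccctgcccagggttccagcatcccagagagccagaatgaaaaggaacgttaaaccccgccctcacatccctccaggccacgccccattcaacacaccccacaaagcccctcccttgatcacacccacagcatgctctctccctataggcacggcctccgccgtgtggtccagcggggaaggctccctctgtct
Dpysl5: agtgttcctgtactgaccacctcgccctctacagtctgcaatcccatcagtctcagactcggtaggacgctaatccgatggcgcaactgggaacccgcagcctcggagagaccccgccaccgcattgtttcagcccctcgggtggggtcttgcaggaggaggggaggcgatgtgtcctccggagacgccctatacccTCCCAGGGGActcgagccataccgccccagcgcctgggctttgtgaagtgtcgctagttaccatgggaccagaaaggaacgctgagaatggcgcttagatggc
Tubb3: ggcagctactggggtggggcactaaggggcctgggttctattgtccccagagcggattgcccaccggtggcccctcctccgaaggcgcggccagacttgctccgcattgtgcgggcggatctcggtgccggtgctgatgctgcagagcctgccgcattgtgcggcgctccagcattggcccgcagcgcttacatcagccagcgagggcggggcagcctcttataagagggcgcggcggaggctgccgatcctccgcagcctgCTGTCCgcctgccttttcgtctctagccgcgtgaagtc
Dcx: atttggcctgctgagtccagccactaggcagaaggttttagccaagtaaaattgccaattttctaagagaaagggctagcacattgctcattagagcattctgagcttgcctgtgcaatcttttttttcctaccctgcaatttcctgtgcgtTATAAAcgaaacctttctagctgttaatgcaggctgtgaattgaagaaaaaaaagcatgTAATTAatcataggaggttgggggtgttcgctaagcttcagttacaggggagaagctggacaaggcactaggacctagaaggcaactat
Both strands were searched for 6 motifs, with no overlap between matches in these windows. The E-box forms CAGCTG and CAGATG, bound by neurogenic basic helix-loop-helix factors, occur in 16.3% and 17.2% of all 32851 windows of the table and matched in none of the 8 windows of the 6 genes. The palindromic site of the Ebf (Olf-1) factors occurs in 0.904% of all windows. It matched once in these 8, in Dpysl5 at position -53, where the start is position 1 and the first base of the match is counted. The homeodomain core TAATTA occurs in 5.29% of windows and the core promoter element TATAAA in 13.6%, and the Dcx window held both, at -39 and -98. GGACAG, a piece of the site of the neuronal repressor REST, occurs in 22.2% and matched on the opposite strand in Tubb3 at position 13 and in one Crmp1 window at -130. The GC content was 58% for Gng8, 61% for Dpysl5, 67.3% for Tubb3 and 43% for Dcx, beside a median of 52.7% over all windows.

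The comparison of the 2 sorted fractions asks how immature neuron transcripts were divided by the sort. In vehicle pools 6 of the 10 genes, Gap43, Gng8, Dpysl3, Dpysl5, Stmn1 and Marcksl1, were lower in titled GFP- cells and 0 were higher (limma moderated test, Benjamini-Hochberg adjusted p under 0.05 over all 19572 features). Over all features 9.82% were called lower, 7.05% higher and 16.9% either way. In odor pools the same genes passed, 6 lower and 0 higher, where 9.98% of all features were called lower, 12.2% higher and 22.2% either way. Stmn2, Tubb3, Dcx and Crmp1 did not pass in either set of pools. The median difference of the 10 genes was -0.79 in vehicle and -0.67 in odor pools, and that of all tested features was 0.13 and 0.14. In mixed cells, fewer cells of a type and less RNA per cell cannot be told apart.

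The groups did not overlap, with every titled GFP- array below every titled GFP+ array, for 7 of the 10 genes in vehicle pools (the called 6 and Stmn2), beside 11.1% of all features. They did not overlap for 5 of 10 in odor pools (Gap43, Gng8, Dpysl3, Dpysl5 and Stmn1), beside 10.3% of all features. No member lay wholly above, which 12.3% of all features did in vehicle and 14.2% in odor pools, so that 23.4% and 24.5% of all features had fractions that did not overlap in either direction.

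**Figure D1:**
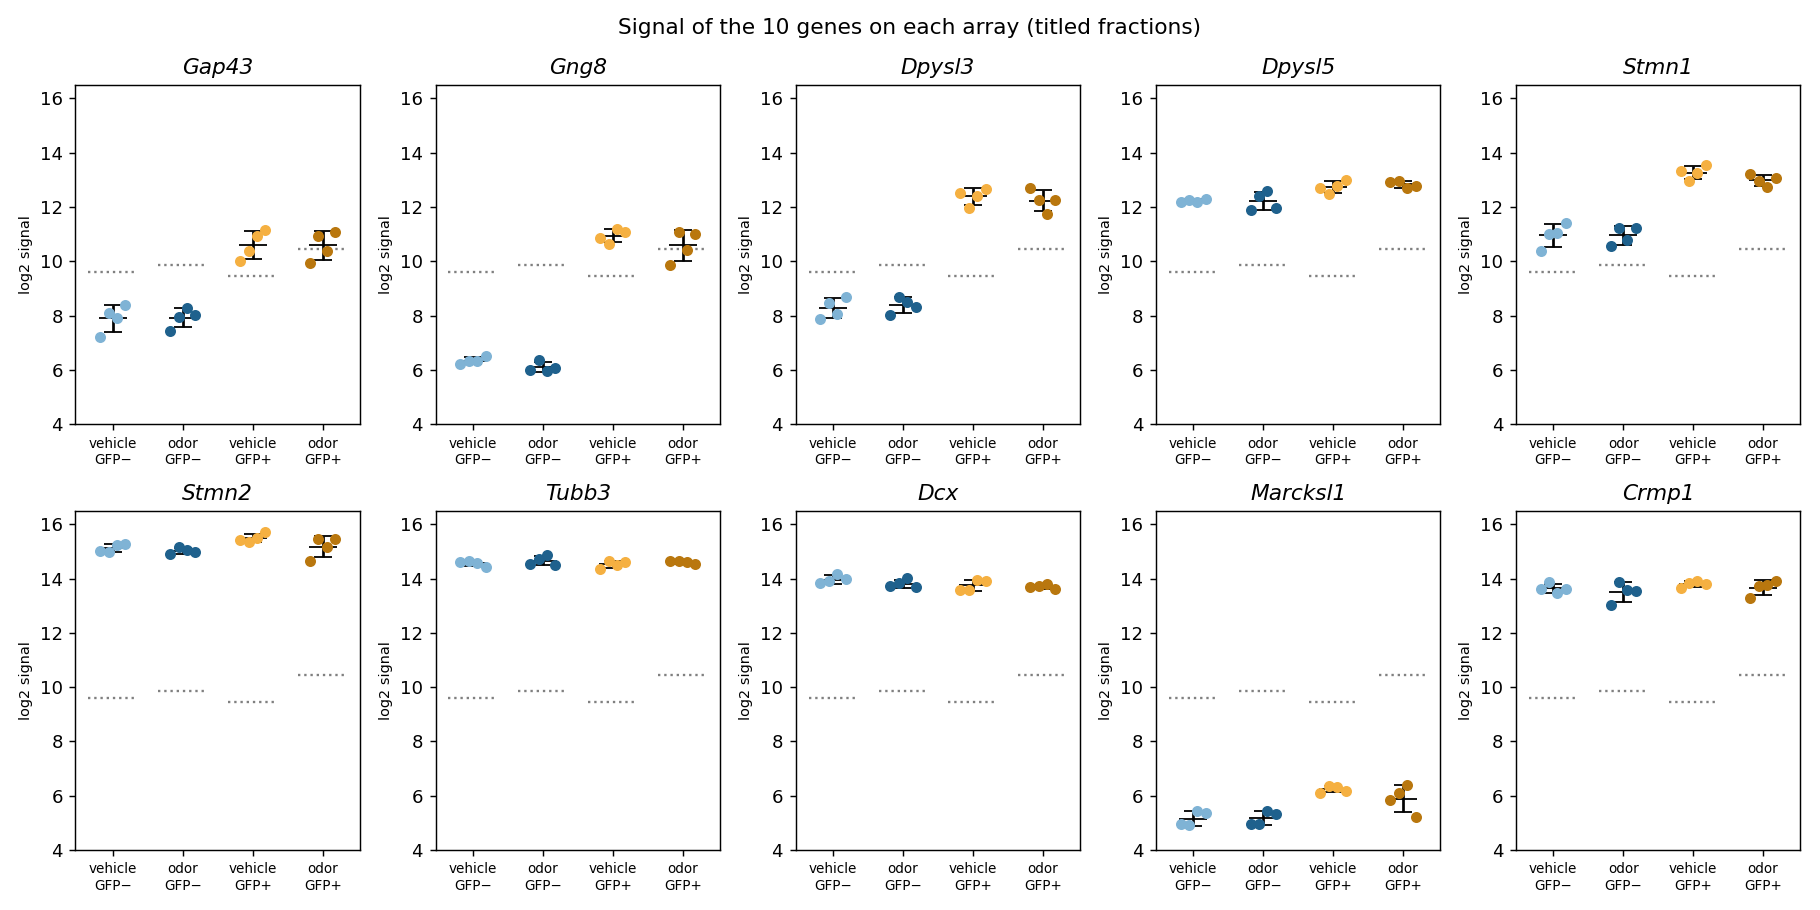
Deposited log2 signal of each of the 10 genes on each of the 16 arrays (points), by treatment and titled fraction, with group mean and SD (bars, n = 4) and the mean negative-control background of the group (dotted lines). The titled GFP- arrays of Gap43, Gng8 and Dpysl3 lie below the background line and Marcksl1 lies below it in all 4 groups. Stmn2, Tubb3, Dcx and Crmp1 lie above it, with fractions that overlap except for Stmn2 in vehicle pools.

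Gap43 encodes a membrane phosphoprotein of growing axon tips and is the classic marker of immature olfactory neurons. Its log2 signal was 7.21, 8.08, 7.90 and 8.38 on the vehicle titled GFP- arrays (replicates 1 to 4) and 10.02, 10.36, 10.91 and 11.16 on the titled GFP+ arrays of the same pools. In odor pools it was 7.43, 7.96, 8.27 and 8.02 against 9.94, 10.94, 10.39 and 11.08. Every titled GFP- array was lower than every titled GFP+ array, and all 8 titled GFP- arrays were below background. The difference was -2.72 ± 0.31 (SE) in vehicle pools and -2.67 ± 0.31 in odor pools (limma, adjusted p = 6.3e-06 and 8.14e-06). Since the dim side was not well above background, the fold is a bound, at least 2.02-fold in vehicle and at least 1.65-fold in odor pools. The background was also taken from the GC-graded probe sets (6.87 to 7.41 on the log2 scale), a choice made after the data were seen. Gap43 was above this GC-graded background on all 16 arrays, and the fold was then 6.59 in vehicle and 6.35 in odor pools. The margin was thin on some titled GFP- arrays, such as 7.43 against 7.40 on odor replicate 1, so the dim side stayed near the floor. In the odor titled GFP+ group 3 of 4 arrays were above background, the exception being replicate 1, whose background was the highest of all at 10.9.

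Gng8 encodes a gamma subunit of heterotrimeric G proteins found in immature olfactory and in vomeronasal neurons. It gave 6.20, 6.32, 6.33 and 6.51 on the vehicle titled GFP- arrays and 10.88, 10.63, 11.18 and 11.09 on the titled GFP+ arrays. The odor pools gave 6.01, 6.36, 5.94 and 6.08 against 9.86, 11.08, 10.43 and 10.99. The differences were -4.60 ± 0.22 and -4.49 ± 0.22 (limma, adjusted p = 3.68e-10 and 4.77e-10). All titled GFP- arrays were below background, so the fold is at least 2.53 in vehicle and at least 1.66 in odor pools. They were also below the GC-graded background, with which the bounds became at least 13.6-fold and at least 10.2-fold.

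Marcksl1 encodes a MARCKS-like protein that binds the membrane and actin. Its 16 signals lay between 4.91 and 6.37, below background on every array by either definition, so no fold is given. Titled GFP- arrays read 4.93, 4.91, 5.41 and 5.34 in vehicle pools against 6.10, 6.33, 6.30 and 6.16, and 4.95, 4.96, 5.44 and 5.30 in odor pools against 5.83, 6.10, 6.37 and 5.21. The vehicle groups did not overlap and the odor groups did, through titled GFP+ replicate 4. The differences of -1.07 ± 0.21 and -0.71 ± 0.21 passed the test (limma, adjusted p = 0.00164 and 0.0236), but in odor pools the call was lost without odor replicate 1, 2 or 3 (adjusted p = 0.104, 0.136 and 0.0627).

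Of the 2 stathmins, which bind tubulin and destabilize microtubules, Stmn1 passed the test in both sets of pools and Stmn2 in neither. Stmn1 signals were 10.39, 11.00, 11.04 and 11.40 on the vehicle titled GFP- arrays and 13.32, 12.96, 13.24 and 13.54 on the titled GFP+ arrays. In odor pools they were 10.55, 11.24, 10.80 and 11.23 against 13.20, 12.96, 12.73 and 13.07. All 16 were above background and the fractions did not overlap, so the fold was measured on both sides. Stmn1 was 4.96-fold lower in titled GFP- cells of vehicle pools, a difference of -2.31 ± 0.21, and 4.10-fold lower in odor pools, -2.04 ± 0.21 (limma, adjusted p = 6.69e-07 and 2.66e-06).

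Stmn2, the growth cone stathmin of neurons, read 15.02, 14.99, 15.24 and 15.26 on the vehicle titled GFP- arrays and 15.43, 15.34, 15.51 and 15.71 on the titled GFP+ arrays. Each vehicle pool had the lower signal in its titled GFP- fraction, with differences of -0.27 to -0.45, yet its difference of -0.37 ± 0.16 (95% interval -0.72 to -0.026) did not pass after adjustment (limma, adjusted p = 0.135). Without odor replicate 1, which changes the pooled spread and the adjustment but not the difference, it passed (limma, adjusted p = 0.0476). In odor pools it read 14.90, 15.15, 15.06 and 14.96 against 14.65, 15.46, 15.16 and 15.44, overlapping groups with a difference of -0.16 ± 0.16 (95% interval -0.51 to 0.19).

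Tubb3, the neuron-specific beta tubulin, and Dcx, which binds microtubules in migrating and newly differentiating neurons, were well above background on all 16 arrays. Tubb3 signals ranged from 14.34 to 14.86, with a difference of 0.031 ± 0.12 in vehicle pools (95% interval -0.21 to 0.28) and 0.050 ± 0.12 in odor pools (-0.20 to 0.30). Dcx signals ranged from 13.58 to 14.17. Dcx was higher in the titled GFP- fraction of all 8 pools, by 0.044 to 0.31, but its differences of 0.21 ± 0.13 (95% interval -0.068 to 0.48) and 0.11 ± 0.13 (-0.17 to 0.38) did not pass (limma, adjusted p = 0.298 and 0.597). A difference of the size of that of Stmn1 lay outside all 4 of these intervals. The values of both genes depended on the scaling: with arrays centred on their median over tested features they passed as higher in titled GFP- cells, at 0.44 and 0.61 in vehicle pools and 0.35 and 0.41 in odor pools (limma, adjusted p = 0.0099, 0.0025, 0.0339 and 0.0258). Centred on the median of mature neuron markers they turned to -0.26 and -0.086 in vehicle pools and -0.31 and -0.26 in odor pools.

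The remaining 3 genes encode collapsin response mediator proteins, a family that carries semaphorin signals to the growth cone cytoskeleton. Dpysl3 (also called CRMP4) read 7.87, 8.48, 8.05 and 8.69 on the vehicle titled GFP- arrays and 12.52, 11.98, 12.39 and 12.67 on the titled GFP+ arrays. Its odor values were 8.02, 8.69, 8.50 and 8.32 against 12.69, 12.25, 11.74 and 12.24. Titled GFP- arrays were all below background and titled GFP+ arrays all above it. The differences were -4.12 ± 0.23 and -3.85 ± 0.23 (limma, adjusted p = 2.06e-09 and 5.28e-09), with a fold of at least 6.90 in vehicle and at least 5.17 in odor pools. All 16 arrays were above the GC-graded background, with which the folds were 17.4 and 14.4. On the odor titled GFP- array of replicate 1 the signal was 8.02 against a GC-graded background of 7.40.

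Dpysl5 (CRMP5) was above background on all 16 arrays. It read 12.19, 12.27, 12.19 and 12.29 on the vehicle titled GFP- arrays against 12.70, 12.48, 12.76 and 13.00, and 11.89, 12.42, 12.58 and 11.98 in odor pools against 12.91, 12.98, 12.72 and 12.76. The fractions did not overlap in either set of pools, but the gap was narrow, with closest arrays 12.29 and 12.48 in vehicle pools and 12.58 and 12.72 in odor pools. The differences were -0.50 ± 0.16 (1.42-fold) and -0.62 ± 0.16 (1.54-fold), with limma adjusted p of 0.0356 and 0.00925. The vehicle difference no longer passed without vehicle replicate 1, 3 or 4 (limma, adjusted p = 0.124, 0.138 and 0.137), nor the odor difference without odor replicate 1 (adjusted p = 0.0708).

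Crmp1, the third member of the family in the set, ranged from 13.01 to 13.90 over all arrays. Its fractions overlapped in both sets of pools, with differences of -0.16 ± 0.18 (95% interval -0.53 to 0.22) and -0.16 ± 0.18 (-0.53 to 0.22) that did not pass (limma, adjusted p = 0.576 and 0.552). Within this family the fraction difference thus ran from a strong one for Dpysl3 through a small one for Dpysl5 to one that was not called for Crmp1. The 95% intervals of the 3 genes in vehicle pools were -4.60 to -3.64, -0.84 to -0.17 and -0.53 to 0.22, and the last pair overlap.

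**Figure D2:**
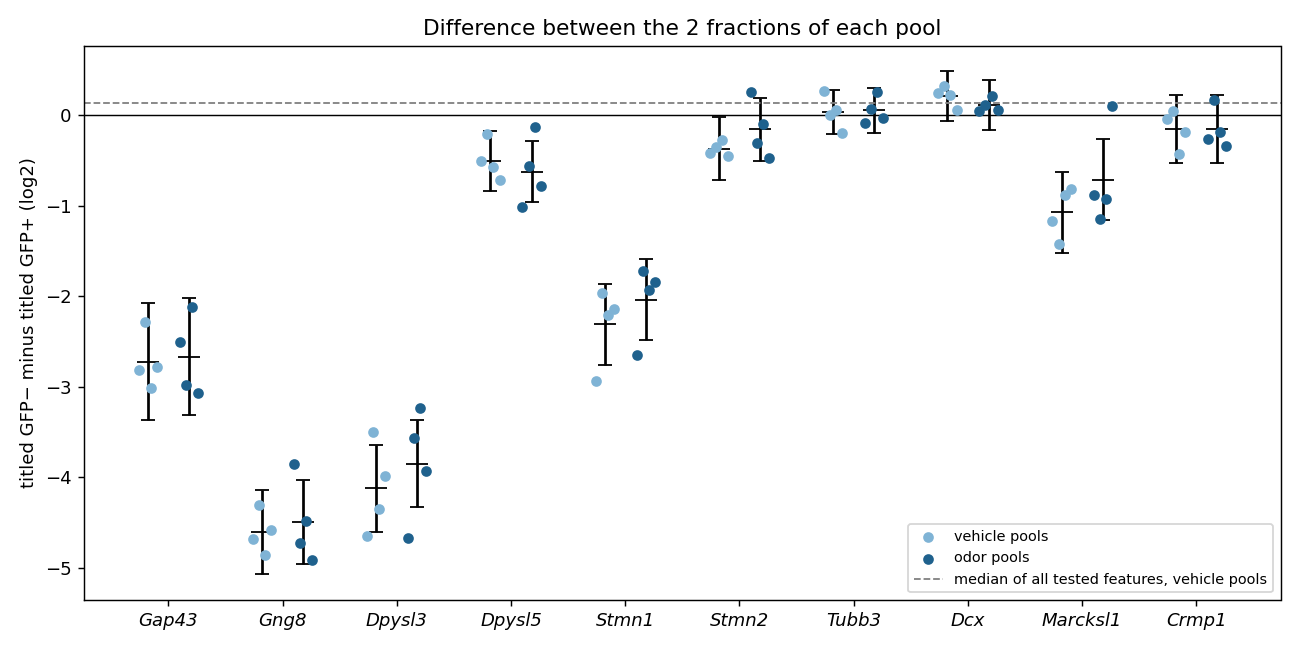
Difference in log2 signal between the titled GFP- and titled GFP+ fraction of each pool (points, 4 vehicle and 4 odor pools per gene) with the limma estimate and its 95% interval (bars); the dashed line is the median of all tested features in vehicle pools, 0.13. In vehicle pools the plotted differences are -4.60 for Gng8, -4.12 for Dpysl3, -2.72 for Gap43 and -2.31 for Stmn1. Stmn2 lies at -0.37, and Tubb3, Dcx and Crmp1 lie between -0.16 and 0.21. Gng8, Dpysl3 and Gap43 have titled GFP- signals below the negative-control background, so their order is not measured.

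All called features split unequally between directions, and the split moved with the scaling. In vehicle pools 1380 were higher and 1922 lower in titled GFP- cells as deposited, and the higher ones fell to 681, 856 and 770 without vehicle replicate 1, 2 or 3. A renewed quantile normalization gave 2643 and 1863. Arrays centred on their median over tested features gave 12456 and 1529, over olfactory receptor genes 343 and 1801, and over mature neuron markers 414 and 3177. The odor pools had 2385 and 1953 as deposited, the higher ones being 1238 and 1449 without odor replicate 1 or 3, and counts of 9658 and 1534, 341 and 2449, and 515 and 4218 under the 3 centrings. Those 3 centrings moved the median difference of all features from 0.13 to 0.54, -0.14 and -0.16 in vehicle pools. Gap43, Gng8, Dpysl3 and Stmn1 remained called lower under all 4 scalings in both sets of pools.

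Close relatives of the 10 genes were also divided. Of 24 paralogs, 7 were lower in titled GFP- cells and 0 higher in vehicle pools, with a median of -0.16, and 7 and 0 in odor pools. Among all features 9.82% were called lower in vehicle and 9.98% in odor pools. Marcks, the namesake of the Marcksl1 family, was above background on all 8 vehicle arrays and lower by -2.27 ± 0.26 (limma, adjusted p = 7.89e-06), and the beta tubulin Tubb2b by -2.18 ± 0.26 (adjusted p = 1.25e-05). The G protein gamma subunit genes Gng2 and Gng12 differed by -3.68 ± 0.34 and -2.50 ± 0.33 (adjusted p = 6.7e-07 and 3.05e-05), with no titled GFP- array and 1 of 4 titled GFP+ vehicle arrays above background. Gng13, the gamma subunit of odor transduction in mature cilia, had a signal of 15.65 ± 0.21 against 15.42 ± 0.19 and did not pass (difference 0.23 ± 0.19, limma adjusted p = 0.442).

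Among 24 other genes of neurite outgrowth and the growth cone, 3 were lower and 0 higher in vehicle pools, a share near the background, and their median was 0.090. Cd24a, a surface glycoprotein of immature neurons that blood cells also carry, was below background on all titled GFP- arrays and at 11.45 in vehicle titled GFP+ cells, a difference of -6.75 ± 0.47 and a fold of at least 3.58 (limma, adjusted p = 2.83e-08). The adhesion molecule Nrcam (-1.11 ± 0.15, adjusted p = 4.88e-05) was below background in both fractions, and the kinesin Kif5c differed by -0.57 ± 0.13 (adjusted p = 0.00577). In odor pools 3 were lower and 2 higher. The higher ones, named after their values were seen, were Fez1 (0.78 ± 0.16), below background in all 4 groups, and Ppp2r2b (0.74 ± 0.20) (limma, adjusted p = 0.00282 and 0.0146). Ppp2r2b lost the call without odor replicate 2 or 3 (adjusted p = 0.0534 and 0.0717), and both lost it with arrays centred on the receptor median (adjusted p = 0.365 for Fez1 and 0.389 for Ppp2r2b). With each array set to its median over tested genes, 17 of the 24 were higher in vehicle pools and 14 in odor pools. That scaling called 12456 and 9658 of all 19572 features higher, so these counts are not particular to the list. Under it Kif5c no longer passed in vehicle pools (-0.17, limma adjusted p = 0.287).

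Of 17 transcription factors of late precursors and immature neurons, 6 were lower and 0 higher in vehicle pools, with a median of -0.062, and 6 lower and 1 higher in odor pools. The shares of all features called lower were 9.82% and 9.98%, and 12.2% were higher in odor pools. Nhlh1 and Nhlh2, helix-loop-helix factors of newly born neurons, and Sox11, an HMG-box factor of the same stage, were below background on all vehicle titled GFP- arrays. Nhlh1 was at 5.23 in titled GFP- and 10.47 in titled GFP+ cells of vehicle pools, a difference of -5.24 ± 0.30 and a fold of at least 1.83 (limma, adjusted p = 3.58e-09). Sox11 differed by -3.00 ± 0.27, at least 3.33-fold, and Nhlh2 by -2.64 ± 0.29, at least 1.20-fold (adjusted p = 5.96e-07 and 4.97e-06). Insm1, a zinc finger factor of dividing precursors, was below background in all vehicle arrays, and its difference of -0.94 ± 0.25 (adjusted p = 0.0133) lost the call without vehicle replicate 3 or 4 (adjusted p = 0.0795 and 0.0728). The 1 higher in odor pools, Neurod2, named after its values were seen, was below background in all 4 groups (0.57 ± 0.17, adjusted p = 0.0257), and lost the call without odor replicate 1 or 4 (adjusted p = 0.103 and 0.159). Without vehicle replicate 3, 3 rather than 6 of the factors were lower in vehicle pools, and 2 were when only features above background on 4 arrays were tested.

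Mature neurons and other cells were read from marker lists. Of 18 mature neuron markers, 6 were higher in titled GFP- cells and 0 lower in each set of pools, with medians of 0.25 and 0.20. Among all features 7.05% were called higher in vehicle and 12.2% in odor pools. Above background on all arrays of every group were 16 of 18. The 6 were not the same genes, since Pde4a and Cnga1 passed in vehicle pools only and Adcy3 and Rtp2 in odor pools only. Cnga1 had the largest vehicle difference, 0.72 ± 0.22 (limma, adjusted p = 0.0292), but was below background in all groups. The vehicle count of 6 includes Cnga1, which thus gives no reading of mature neurons. Among the called ones, Pde1c, a phosphodiesterase of olfactory cilia, was higher by 0.57 ± 0.10, and Ckb, the brain creatine kinase, by 0.49 ± 0.15 in vehicle pools (limma, adjusted p = 0.000723 and 0.0277). The count of 6 fell with fewer pools and moved with the scaling. Without vehicle replicate 1, 2, 3 or 4 it was 1, 1, 2 and 3 in vehicle pools, and without odor replicate 1, 2 or 3 it was 3 in odor pools. Higher calls over all features fell too, from 1380 to 681, 856, 770 and 945 in vehicle pools, and from 2385 to 1238, 1603 and 1449 in odor pools. The count of markers was 0 in both sets of pools with arrays centred on the receptor median, and 18 and 17 with each array set to its median over tested genes. The latter scaling called 12456 and 9658 of all 19572 features higher. The Ckb difference did not pass when vehicle replicate 1, 2 or 3 was left out (limma, adjusted p = 0.115, 0.0932 and 0.113).

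Markers of leukocytes, cycling cells, microvillar cells and ionocytes were lower in titled GFP- cells, while other marker lists were divided. All 10 neutrophil markers were lower in both sets of pools, and all 10 were below background on all titled GFP- arrays. On the vehicle arrays the log2 of their summed unlogged signal was 8.76 to 9.26 in titled GFP- and 18.49 to 19.76 in titled GFP+ cells. The brightest genes weigh most on such a sum. All 13 other leukocyte markers were lower, with summed signals of 9.35 to 9.61 and 15.33 to 17.11. Of 14 cycling cell markers 14 were lower in vehicle and 13 in odor pools (13.83 to 14.10 against 14.51 to 15.63 in vehicle pools), and of 8 microvillar cell and ionocyte markers 8 in both (11.04 to 11.86 against 13.48 to 14.57). The cycling sum in titled GFP- cells rested mostly on Pcna, at 13.88 in vehicle pools, and the median difference of that list was -2.44. Many of these markers were dim in both fractions. Below background on all titled GFP+ arrays were 6 of 14 cycling markers in vehicle and 11 in odor pools. The same held for 3 and 6 of 13 other leukocyte and 4 and 5 of 8 microvillar cell and ionocyte markers. In titled GFP- cells of either set of pools 13 of 14, 13 of 13 and 7 of 8 were below it. Counts for the other lists, in vehicle and then odor pools, were 3 and 3 lower of 9 progenitor markers, 5 and 6 of 9 sustentacular, 1 and 2 of 5 ensheathing glia, 2 and 2 of 4 vomeronasal and 1 and 1 of 10 endothelial and mesenchymal markers, with 0 higher. Beside these counts, 9.82% of all features were called lower in vehicle and 9.98% in odor pools, a share that the endothelial and mesenchymal list does not exceed clearly. The median difference of the endothelial and mesenchymal list was 0.29 in vehicle and 0.031 in odor pools. All 10 of its markers were below background in all 4 groups. So were 9 of 9 progenitor markers in titled GFP- cells, and 8 in vehicle and 9 in odor titled GFP+ cells. On the titled GFP+ arrays 3 of 9 sustentacular markers in vehicle and 7 in odor pools were below it. The part of these cells in the fraction differences of the 10 genes was not tested. Of the 6 activity-dependent neuron genes 5, S100a5 among them, were higher in titled GFP- cells in both sets of pools, beside 7.05% and 12.2% of all features.

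**Figure D3:**
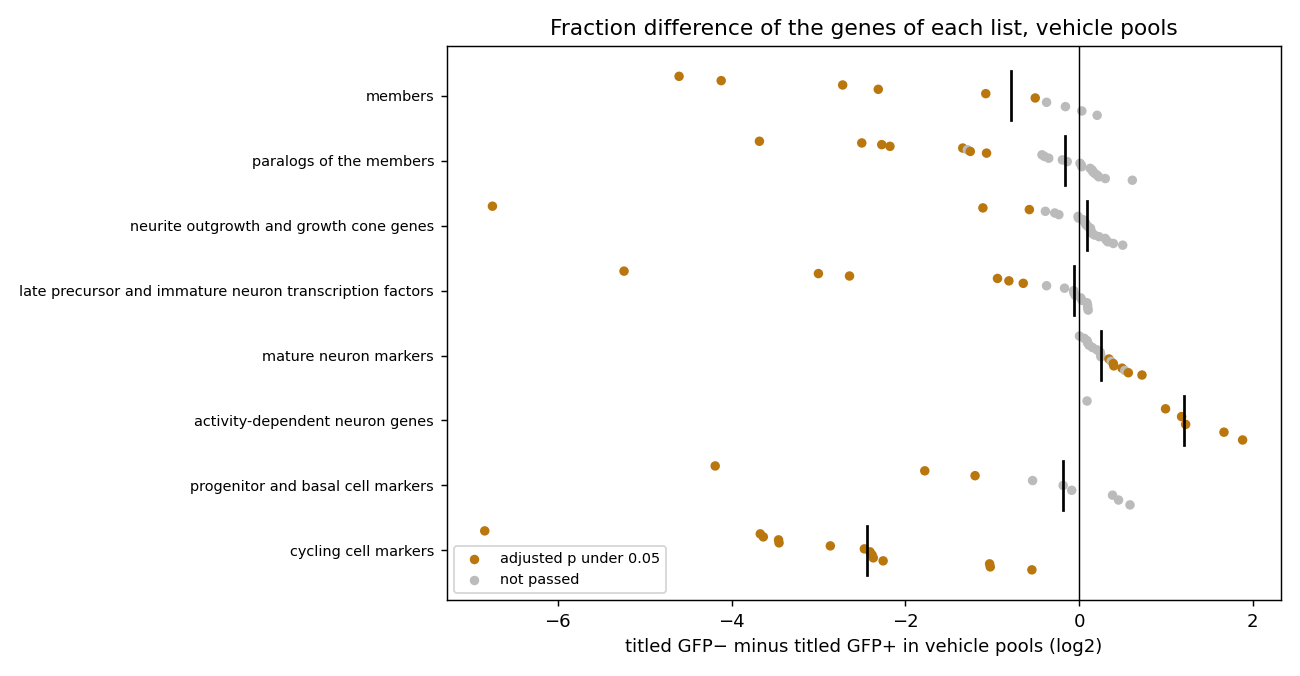
Fraction difference (titled GFP- minus titled GFP+, log2) in vehicle pools for each gene of 8 lists (points; orange passed the limma test at an adjusted p of 0.05), with list medians (black bars). The 10 genes have a median of -0.79 and spread from -4.60 to 0.21, cycling cell markers lie lower with a median of -2.44, and mature neuron and activity-dependent genes lie at or above 0.

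The comparison of odor with vehicle asks whether intermittent odor pulses changed these genes within a fraction. No member passed in either fraction or in the interaction, which tests whether the fraction difference differed between treatments, and 0% of the 19572 features passed in any of the 3 (limma, 0 called in each direction). At an unadjusted p under 0.05 there were 0 members in each, and 805 features in titled GFP- cells, 2016 in titled GFP+ cells and 739 in the interaction. With the replicate number as a block, 1 feature passed in each fraction, neither of them a member.

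In titled GFP- cells the odor minus vehicle differences of the 10 genes ran from -0.25 ± 0.22 (SE) for Gng8 (95% interval -0.71 to 0.22) to 0.11 ± 0.23 for Dpysl3 (-0.37 to 0.59). In titled GFP+ cells, where most of the 10 genes had their higher signals, they ran from -0.36 ± 0.22 for Gng8 (-0.82 to 0.11) to 0.10 ± 0.16 for Dpysl5 (-0.23 to 0.43). The next lowest were Marcksl1 at -0.35 ± 0.21, Stmn2 at -0.32 ± 0.16 and Stmn1 at -0.28 ± 0.21 (limma, adjusted p = 0.604, 0.522 and 0.701). Of the 10 genes 8 were negative there, beside 54.4% of all features. Gap43 was close to 0 in both fractions, at 0.024 ± 0.31 and -0.030 ± 0.31, with the widest intervals of the set, -0.62 to 0.67 and -0.68 to 0.62.

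The fraction difference in odor pools minus that in vehicle pools ranged from -0.12 ± 0.22 for Dpysl5 to 0.36 ± 0.30 for Marcksl1 (limma, adjusted p = 0.9997 for both). For Gng8 it was 0.11 ± 0.31 (95% interval -0.55 to 0.77) and for Dpysl3 0.27 ± 0.32 (-0.41 to 0.95). For Stmn2 the interval of -0.28 to 0.71 spanned more than its vehicle fraction difference of -0.37.

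**Figure D4:**
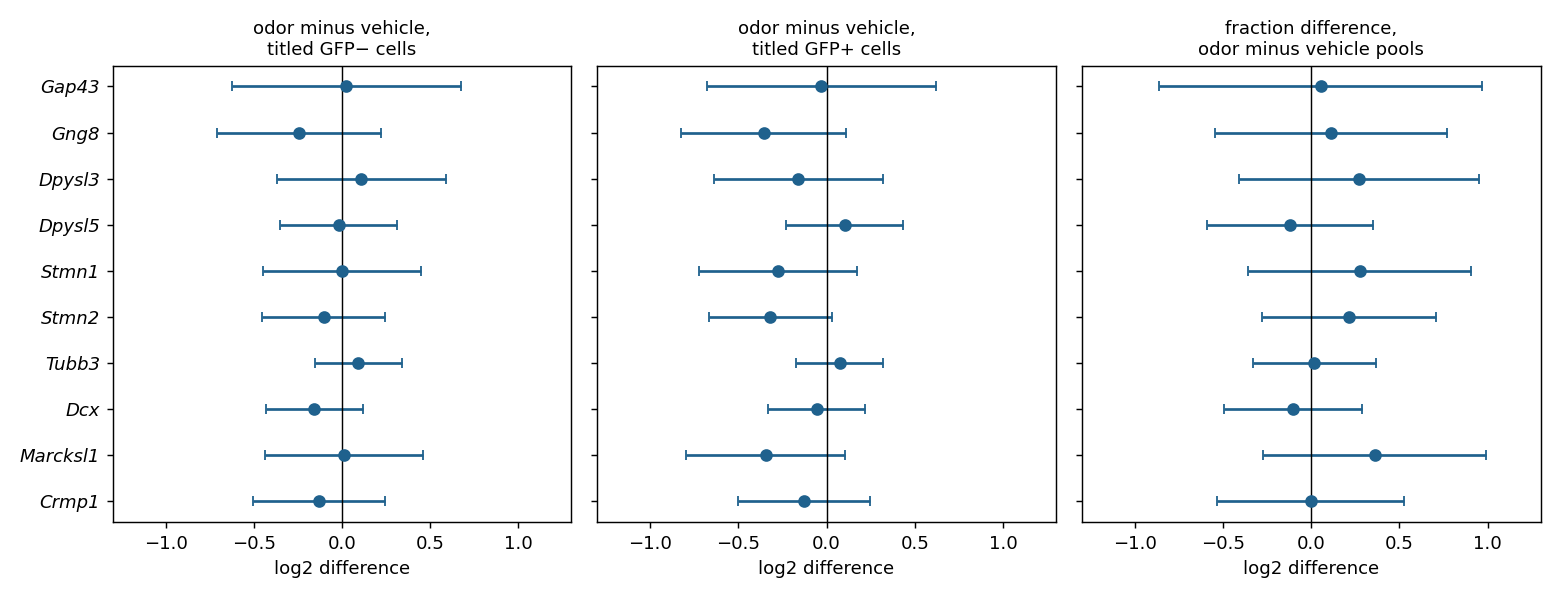
Estimated log2 differences (points) with 95% intervals (bars) for odor minus vehicle in titled GFP- cells (left), in titled GFP+ cells (middle) and for the fraction difference in odor minus vehicle pools (right). All intervals cross 0; the lowest estimate is -0.36 for Gng8 in titled GFP+ cells and the highest 0.36 for Marcksl1 in the right panel.

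The 10 genes varied together to different degrees. Over the 16 arrays the 45 pairs of members had a median Pearson r of 0.47, from -0.45 to 0.99, largely set by the fractions. After centring on group means the median was 0.23, from -0.28 for Stmn1 and Tubb3 to 0.91 for Gng8 and Stmn2, with 0.82 for Dpysl3 and Stmn1 and 0.75 for Gap43 and Stmn2. These points share pools and arrays, so the values are descriptions. On the odor titled GFP- array of replicate 1, 0 of the 10 genes were above their group mean, with a mean deviation of -0.27, and on the vehicle titled GFP- array of replicate 1, 1 was, with a mean deviation of -0.23.

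Among 6758 features above background on at least 4 arrays, those with signals most like Gap43 over the 16 arrays were Foxi1, a transcription factor of ionocytes, at a Pearson r of 0.979, the receptor genes Olfr441, Olfr460, Olfr291 and Olfr1507 at 0.977, 0.975, 0.973 and 0.972, and the kinase gene Stk32a at 0.971. Most like Gng8 were Calb2, which encodes the calcium-binding protein calretinin, at 0.995, and Olfr411, Olfr1507, Olfr459, Olfr99 and Olfr460 at 0.991, 0.989, 0.989, 0.987 and 0.987. Centred on group means these fell in size, to 0.80 for Foxi1 with Gap43, 0.70 for Calb2 with Gng8 and 0.068 for Olfr459 with Gng8. Gap43, Gng8 and Foxi1 were below background on all titled GFP- arrays. Foxi1 passed the filter through titled GFP+ arrays only, 3 of the vehicle and 1 of the odor pools. The correlations over 16 arrays thus largely restate the fraction difference.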

How the data were processed

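Values came from 16 Clariom S arrays. The authors' deposited table holds log2 signals, a unit read from their range of 1.77 to 19.3, made with Affymetrix Expression Console, per the submitters' processing notes; version, normalization and genome build are not given in the sources used here. Signals were compared between arrays as deposited. Of 28846 entries, 19572 carried 1 gene symbol and were tested, with names checked by Entrez identifier against RefSeq GRCm38.p6. A cell-means model over the 4 titled groups was fitted with limma 3.58.1 in R 4.3.3, with two-sided moderated tests, Benjamini-Hochberg adjustment over all 19572 features at 0.05, and no block. Precision is limited by 4 arrays per group. Each array is a pool of 3 mice, so the spread between arrays is partly one between mice.

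On data simulated for the vehicle fraction difference over 19572 features, the model recovered 16.4% of 67 changes of 0.5, 77.6% of 67 of 1 and 95.5% of 66 of 2 on the log2 scale, with 8 false calls. Only these features were changed, and the simulated arrays were independent. In the data 16.9% of features were called in vehicle pools and the fractions share pools, so recovery there can differ. Since 16 samples of 3 mice exceed 24 mice, the same mice gave both fractions of a pool. Residuals of the 2 fractions correlated at 0.0957 to 0.337, and those of odor and vehicle arrays with the same replicate number at 0.147 to 0.547, so the numbers were taken to pair samples; the printed values come from the fit without a block, and the block was an alternative. Alternatives were a renewed quantile normalization, 3 centrings, a filter on dim features, an intensity trend, 2 groups only, a replicate block, and each pool left out.

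The 10 genes and all lists were chosen with earlier results of these data known. All members are named; from lists, at most the 4 largest called genes per direction in vehicle pools, and for likeness the 6 highest Pearson correlations with Gap43 and with Gng8. Genes measured below background on every array of a group have only a bound there. On the log2 scale it is the bright group's mean minus a floor mean of the dim group. The floor of each dim array is the higher of its background and its signal. Promoters are from RefSeq. Proteins were not used here.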

Additional observations from a re-analysis of the deposited data

How the results depend on the processing

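Over all alternatives the fraction comparisons called 5 to 7 of the 10 genes in vehicle and 4 to 8 in odor pools, counting either direction. The number was 0 in the interaction and both odor contrasts under each of them. With the pool or replicate number as a replicate block the counts were 6, 6, 0, 0 and 0, and the block changed no call of a member. Gap43, Gng8, Dpysl3 and Stmn1 were called lower under every alternative. Gap43, Gng8 and Dpysl3 pass the filter on dim features only through titled GFP+ arrays, where they are high. Their call under that filter is therefore no further support. In vehicle pools Dpysl5 lost its call when arrays were centred on the median of tested features (-0.10) or of receptors (-0.77), and Stmn2 gained one on the mature marker median (-0.67). In odor pools Marcksl1 lost its call after quantile normalization (-0.53), with 2 groups only and on the tested median (-0.41), Dpysl5 on the tested median (-0.32), while Stmn2 gained one on the receptor (-0.63) and mature marker (-0.52) medians and Crmp1 on the latter (-0.52). On the tested median Tubb3 and Dcx gained a call as higher, at 0.44 and 0.61 in vehicle and 0.35 and 0.41 in odor pools. The count there was thus 2 higher and 5 lower in vehicle pools, and 2 higher and 4 lower in odor pools. Of all 19572 features, the same scaling called 12456 higher and 1529 lower in vehicle pools, and 9658 and 1534 in odor pools. The filter on dim features left 6767, without Marcksl1. The cause of these changes was not tested, apart from that filter and the shift that each centring adds by construction.

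Signs that turned were of differences that did not pass as deposited. Under quantile normalization, the vehicle fraction difference became -0.033 for Tubb3. The odor fraction difference was -0.023 for Tubb3. The interaction became -0.024 for Gap43 and -0.029 for Gng8. For odor minus vehicle, titled GFP- cells gave 0.012 for Dpysl5, 0.012 for Stmn1 and -0.035 for Marcksl1, and titled GFP+ cells 0.067 for Gap43. With the tested median, the vehicle fraction difference became 0.030 for Stmn2 and 0.25 for Crmp1. The odor fraction difference was 0.14 for Stmn2 and 0.14 for Crmp1. The interaction became -0.049 for Gap43 and -0.084 for Tubb3. For odor minus vehicle, titled GFP- cells gave 0.00056 for Stmn1, and titled GFP+ cells 0.075 for Gap43 and 0.050 for Dcx. With the receptor median, the vehicle fraction difference became -0.24 for Tubb3 and -0.061 for Dcx. The odor fraction difference was -0.42 for Tubb3 and -0.36 for Dcx. The interaction became -0.15 for Gap43, -0.087 for Gng8 and -0.18 for Tubb3. For odor minus vehicle, titled GFP- cells gave 0.049 for Dpysl5 and 0.064 for Stmn1, and titled GFP+ cells 0.24 for Gap43, 0.10 for Dpysl3, 0.21 for Dcx and 0.14 for Crmp1. With the mature marker median, the vehicle fraction difference became -0.26 for Tubb3 and -0.086 for Dcx. The odor fraction difference was -0.31 for Tubb3 and -0.26 for Dcx. The interaction became -0.015 for Gap43 and -0.049 for Tubb3. For odor minus vehicle, titled GFP- cells gave 0.053 for Dpysl5 and 0.068 for Stmn1, and titled GFP+ cells 0.11 for Gap43, 0.083 for Dcx and 0.0089 for Crmp1. Leaving out 1 pool at a time, the vehicle fraction difference ran from -0.047 to 0.11 for Tubb3. The odor fraction difference ran from -0.016 to 0.096 for Tubb3. The interaction ran from -0.10 to 0.25 for Gng8, -0.28 to 0.012 for Dpysl5, -0.11 to 0.064 for Crmp1, -0.13 to 0.20 for Gap43 and -0.057 to 0.097 for Tubb3. For odor minus vehicle, titled GFP- cells ran from -0.14 to 0.091 for Dpysl5, -0.19 to 0.15 for Stmn1, -0.26 to 0.035 for Crmp1, -0.20 to 0.19 for Gap43, -0.079 to 0.10 for Marcksl1 and -0.022 to 0.25 for Dpysl3, and titled GFP+ cells from -0.23 to 0.19 for Gap43, -0.21 to 0.0019 for Crmp1, -0.31 to 0.0032 for Dpysl3 and -0.11 to 0.011 for Dcx. Signal over the negative-control background limits the folds of Gap43, Gng8 and Dpysl3 to bounds and gives none for Marcksl1. With the GC-graded background only Gng8 keeps a bound, and Marcksl1 still has no fold. Gap43 then lies close to that background on some titled GFP- arrays.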
